A study of Homo sapiens with 6 samples.

Results

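The genes of the small ribosomal subunit encode the proteins that, with the 18S ribosomal RNA, form the 40S particle of the ribosome. They were taken as the entries named RPSA, FAU or RPS followed by a number, with the paralogue RPS27L included and the S6 kinase, RPS4Y and RPS19BP entries left out. This gave 33 genes of the 19655 in the deposited table, and all 33 passed the filter on low counts that left 14062 genes for testing. Expression was measured by RNA sequencing of total RNA from cells labelled HCT116, an established human colon cancer line. The ASO group was transfected with an antisense oligonucleotide against the small nucleolar RNA SNORA67 (3 libraries), a short nucleic acid that pairs with its target RNA, and the NC group holds the control cells (3 libraries). The labels do not say what the control cells received, at which dose the oligonucleotide was used or when cells were harvested. They also leave it unsaid whether replicates are separate cultures, and p-values therefore reflect the spread of these libraries alone, which could be technical.

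The small subunit reads the messenger RNA: its body and head close around the message, and initiation factors load onto it before the large subunit joins. Its proteins are made in near-equal numbers, are carried into the nucleolus, and are built into the particle together with the ribosomal RNA. Their messages are known for a terminal oligopyrimidine (TOP) tract, an unbroken run of C and T bases right at the start, through which the kinase mTORC1 and the RNA-binding protein LARP1 control their translation and stability. SNORA67 belongs to the H/ACA class of small nucleolar RNAs, which guide pseudouridylation, and lies in an intron of EIF4A1.

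The start sites of the members are shown because the TOP tract is the sequence feature these genes are known to share. RefSeq start sites of GRCh38.p14 were on hand for 26 of the 33 genes. A run of at least 6 C or T bases that opens with C, with its first base within 10 bases of an annotated start and read on the transcribed strand only, was found at 1 or more starts in 22 of these 26 genes (84.6%). The same run was found in 24.4% of the 15226 genes of the table with such sequence and at 18.5% of all 35116 starts. The windows below run from 10 bases before the start to 20 bases into the transcript, 5′ to 3′, with the run in capitals.
RPS13, chr11:17077648-17077677, minus strand: ctctcgCTCTCCTTTCgttgcctgatcgcc
RPS3A, chr4:151099618-151099647, plus strand: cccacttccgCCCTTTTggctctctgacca
RPS14, chr5:150449720-150449749, minus strand: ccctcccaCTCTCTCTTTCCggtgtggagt
RPSA, chr3:39406710-39406739, plus strand: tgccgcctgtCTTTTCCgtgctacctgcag
RPS4X, chrX:72277229-72277258, minus strand: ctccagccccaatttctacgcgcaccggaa
RPS29, chr14:49598691-49598720, minus strand: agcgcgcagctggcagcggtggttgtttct
The runs of RPS13, RPS3A, RPS14 and RPSA measured 10, 7, 12 and 7 bases. RPS4X and RPS29 had none in this window, nor had RPS26 and RPS27L. A missing run says only that the annotated start does not carry these letters. The RPS29 window lies wholly outside the deposited span of the gene, which ends at 49598690 of chromosome 14. The start shown for RPS29 is therefore not that of the deposited entry.

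Column totals of the estimated counts were 49136502 to 54905215 in ASO libraries and 50728524 to 53715905 in NC libraries, and the members had between 1542 and 128090 counts per library. A count of 4 was held by 226 to 296 genes per library and a count of 3 by 74 to 121, as when 1 fragment is worth about 4 counts, so the fragments sequenced may be fewer than the totals. Genes with a count numbered 15452 to 15665 in ASO libraries and 13934 to 13995 in NC libraries, and mitochondrially encoded genes took 2.22% ± 0.396 of counts in ASO and 2.998% ± 0.270 in NC (SD, n = 3 each). SNORA67 was not analysed here. Its host gene EIF4A1 stood at 617 ± 46.3 CPM in ASO and 1544 ± 55.3 CPM in NC (SD, n = 3 each; CPM are counts per 1e6 counts of the library, scaled by TMM, the trimmed mean of M values), a fall of 2.50-fold (edgeR adjusted p = 1.49e-05). Of the 12 colon epithelial markers, 10 passed the filter, and their summed level was 1668 to 2198 CPM in ASO and 1925 to 2216 CPM in NC. Nearly all of this was KRT8 and KRT18. EPCAM was at 2.51 to 3.50 CPM in ASO and 3.39 to 5.60 CPM in NC, and CDX2 at 0.0931 to 0.320 CPM in ASO and 0.165 to 0.491 CPM in NC. Both of these defining markers of the labelled cell type were thus near 0, and CEACAM5 had 0 counts in 5 of 6 libraries. CDH1 was also low, at 1.68 to 1.94 CPM in ASO and 0.882 to 1.32 CPM in NC. Whether the cells are of the labelled line was not tested. CLDN7 was at 7.14 to 8.79 CPM in ASO and 7.03 to 8.67 CPM in NC. Of the 10 tested, 3 were called higher (LGALS4, VIL1 and KRT19) and 0 lower. LGALS4 was at 15.05 to 20.1 CPM in ASO and 0 to 0.0198 CPM in NC. VIL1 was at 1.12 to 14.6 CPM in ASO and 0 to 0.202 CPM in NC, and KRT19 at 1.20 to 1.94 CPM in ASO and 0 to 0.151 CPM in NC. The mesenchymal list of 12 genes summed to 3778 to 4437 CPM in ASO and 3050 to 3400 CPM in NC. Of its 11 tested genes, 4 were called higher (COL1A1, COL3A1, COL5A1 and FN1) and 4 lower (PDGFRB, LUM, DCN and SPARC). VIM was at 1171 to 1375 CPM in ASO and 1147 to 1296 CPM in NC. COL5A1 was at 1155 to 1404 CPM in ASO and 574 to 635 CPM in NC. COL1A2, COL3A1, LUM and DCN were low in both groups. The 8 endothelial and immune genes summed to 16.6 to 22.4 CPM in ASO and 10.3 to 12.1 CPM in NC, with PTPRC and CD3E at 0 in all 6 libraries. Of the 5 tested here, 2 were called higher (PECAM1 and CD14) and 0 lower. The part of these markers in the results below was not tested.

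Most small subunit protein genes were slightly lower in ASO, 8 of the 33 passed the test in that direction and a single gene, RPS29, rose. RPS13 and RPS3A fell furthest, by 1.504-fold and 1.54-fold, and RPS27A, RPS14, RPS4X, RPS18 and RPSA fell by 1.28-fold to 1.18-fold. The fitted change was below 0 in 27 of the 33 genes and above 0 in 6, and its median over the members was -0.15 on the log2 scale, against 0.01 over all genes tested. The test was edgeR's quasi-likelihood test with Benjamini-Hochberg adjustment over all 14062 genes at a threshold of 0.05, which called 46% of all genes, 26.8% as higher and 19.1% as lower. Among the members 27.3% were called, 3.03% as higher and 24.2% as lower, so their share of falls was near that of all genes. In bulk RNA, fewer cells of a type and less RNA per cell cannot be told apart. The count of 8 lower genes was 3 without ASO replicate 3, 3 without NC replicate 1, 5 without NC replicate 2 and 5 without NC replicate 3. In the same fits the share of all genes called also went down from 46%, to 34.3%, 34.8%, 36.6% and 38.5%. The calls of RPS13, RPS14 and RPS29 held in each of the 19 alternative settings.

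**Figure D1:**
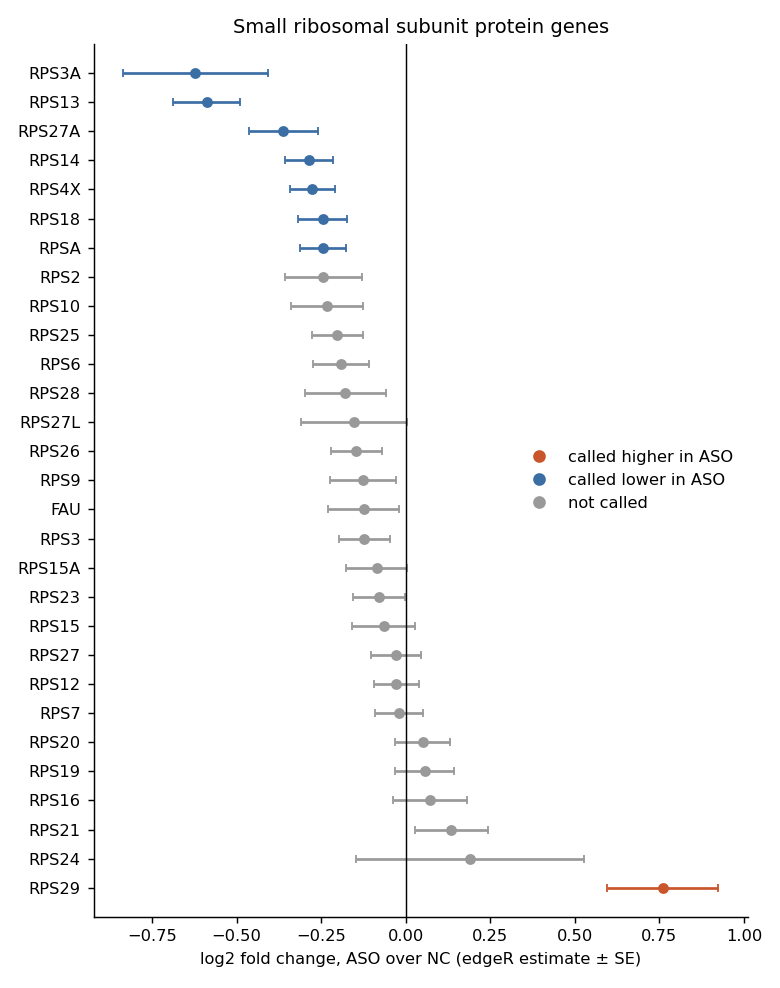
Fitted log2 fold change of ASO over NC for the small subunit protein genes reported by name, with its standard error as the bar, from the lowest at the top to the highest at the bottom. RPS3A (-0.62) and RPS13 (-0.59) stand at the low end, RPS29 (0.76) stands alone at the high end, and most genes lie below 0.

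Of the 18 proteins of the 40S body, 5 fell (27.8%, against 19.1% of all genes tested) and 13 did not pass, with a median log2 fold change of -0.14. RPS13, a body protein that binds the ribosomal RNA early (chromosome 11, 17074388 to 17077667 of hg38), had 225, 222 and 271 CPM in the ASO libraries, against 361, 375 and 344 CPM in the NC libraries. The groups lay well apart, with the highest ASO library below the lowest NC library. The change was -0.59 ± 0.10 on the log2 scale (SE, edgeR adjusted p = 0.00223), and across the alternatives the adjusted p ran from 3.25e-05 to 0.0107. RPS3A, of the platform near the exit of the messenger RNA (chromosome 4, 151099624 to 151104642), had 279.6, 418 and 234 CPM in ASO libraries and 566, 439 and 428 CPM in NC libraries. Its groups nearly touched, since ASO replicate 2 stood close to NC replicates 2 and 3. The change was -0.62 ± 0.21 (SE, edgeR adjusted p = 0.0448), and the call ended in 10 of the 19 alternatives, with an adjusted p up to 0.154. These included leaving out ASO replicate 1 or 3 or any single NC library. Without ASO replicate 2 the log2 fold change of RPS3A was -0.90.

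RPS14, the platform protein whose loss of 1 copy underlies the anaemia of the 5q- syndrome (chromosome 5, 150442635 to 150449739), had 1032, 1007 and 1053 CPM in ASO libraries, against 1221, 1215 and 1334 CPM in NC libraries. RPS4X, an X-linked body protein that escapes X inactivation (chromosome X, 72272042 to 72277248), had 1261, 1277 and 1251 CPM in ASO libraries, against 1478, 1615 and 1495 CPM in NC libraries. RPSA, also described as a laminin receptor precursor (chromosome 3, 39406720 to 39412542), had 1474, 1345 and 1431 CPM in ASO libraries, against 1663, 1662 and 1711 CPM in NC libraries. In each of these 3 genes every ASO library was below every NC library, with little spread inside a group. They fell by 1.219-fold, 1.21-fold and 1.18-fold (edgeR adjusted p = 0.0119, 0.0117 and 0.0188). The call of RPS4X ended without ASO replicate 3 (adjusted p = 0.0522, over all alternatives 0.00535 to 0.0522), and that of RPSA without ASO replicate 3 or NC replicate 1 (adjusted p up to 0.0628).

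RPS2 and RPS6, well-known proteins of the body, did not pass. RPS2, a protein of the messenger RNA entry side, had 2133, 1790.2 and 1749 CPM in ASO libraries and 2011, 2167 and 2537 CPM in NC libraries, and the groups overlapped (log2 fold change -0.24, edgeR adjusted p = 0.114). It was called lower without ASO replicate 1 (edgeR adjusted p = 0.0438). RPS6, the substrate that gave the S6 kinases their name, had 741, 757 and 722 CPM in ASO libraries and 798, 935 and 803 CPM in NC libraries (log2 fold change -0.19, edgeR adjusted p = 0.0936, with the replicate block 0.0358). Its groups did not overlap even so, and the same was true of RPS26, with 221, 207 and 231 CPM in ASO libraries and 243, 242 and 244 CPM in NC libraries (edgeR adjusted p = 0.153). FAU, which encodes a ubiquitin-like protein fused to a ribosomal protein, had 281, 243 and 284 CPM in ASO libraries and 305, 259 and 317 CPM in NC libraries, which overlapped (edgeR adjusted p = 0.366).

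Of the 14 proteins of the 40S head, 3 fell (21.4%, against 19.1% of all genes tested), 1 rose and 10 did not pass. The median log2 fold change was -0.14, as in the body. RPS27A, which encodes ubiquitin fused to a ribosomal protein (chromosome 2, 55231903 to 55235853), had 534, 686 and 598 CPM in ASO libraries, against 762, 821 and 753 CPM in NC libraries. RPS18, a head protein at the boundary with the large subunit (chromosome 6, 33272075 to 33276511), had 1713, 1546 and 1696 CPM in ASO libraries, against 1951, 1875 and 2049 CPM in NC libraries. Neither gene overlapped between the groups, and the falls were 1.28-fold and 1.19-fold (edgeR adjusted p = 0.0208 and 0.0266). Each call was lost in 4 of the 19 alternatives. For RPS27A these were the fits that left out ASO replicate 1, ASO replicate 3, NC replicate 1 or NC replicate 2 (adjusted p up to 0.0808), and for RPS18 those with DESeq2 or without ASO replicate 3, NC replicate 1 or NC replicate 3 (adjusted p up to 0.0664). CLHC1, which overlaps RPS27A on the opposite strand, had 2.55, 10.9 and 4.80 CPM in ASO libraries and 3.74, 4.43 and 3.41 CPM in NC libraries. The part of this overlap in the RPS27A values was not tested.

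RPS29, a small zinc-binding protein of the head whose gene is mutated in some families with Diamond-Blackfan anaemia (chromosome 14, 49570984 to 49598690), was the only member called higher. It had 137, 137 and 199 CPM in ASO libraries, against 96.4, 82.2 and 101.2 CPM in NC libraries. All ASO libraries lay above all NC libraries, and ASO replicate 3 stood above the other ASO libraries. The rise was 1.69-fold (log2 fold change 0.76 ± 0.16, SE, edgeR adjusted p = 0.00719), and without ASO replicate 3 it was 0.56 on the log2 scale and still called. Over the 19 alternatives the log2 fold change ran from 0.56 to 0.85 and the adjusted p from 0.0001 to 0.0343.

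**Figure D2:**
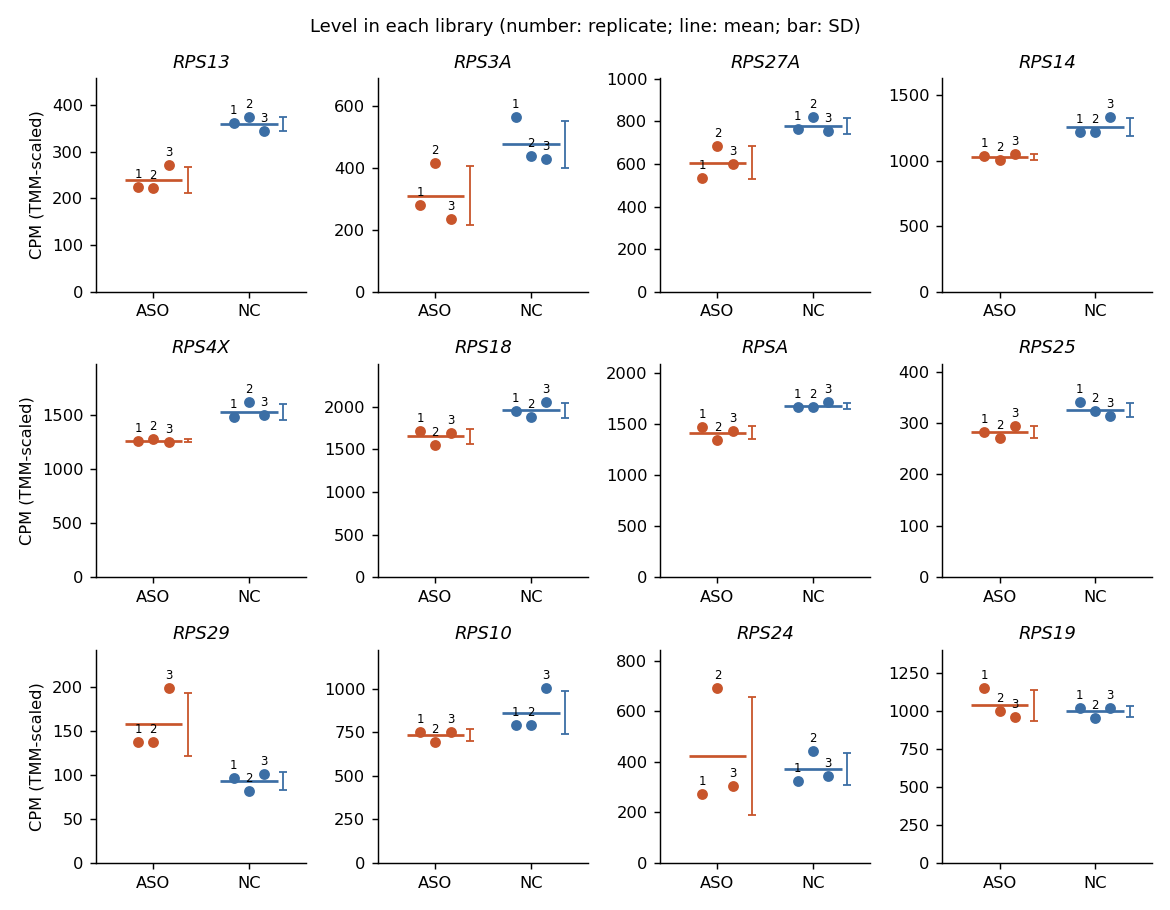
TMM-scaled CPM of 12 genes in each library, ASO left and NC right, with the replicate number above each point, the mean as a line and the SD as a bar. ASO lies below NC without overlap in RPS13, RPS3A, RPS27A, RPS14, RPS4X, RPS18, RPSA, RPS25 and RPS10 and above it in RPS29, while RPS24 has 1 high ASO library (replicate 2) at 693 CPM.

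RPS19 and RPS20 of the head were close to their NC levels. RPS19, the gene most often mutated in Diamond-Blackfan anaemia, had 1150.5, 998 and 959 CPM in ASO libraries and 1018, 952 and 1019.6 CPM in NC libraries (edgeR adjusted p = 0.625). RPS20, which is ubiquitinated when ribosomes collide, had 285, 268.6 and 292 CPM in ASO libraries and 285, 279.7 and 252 CPM in NC libraries (edgeR adjusted p = 0.644). Both overlapped between the groups, and their fitted changes of 0.06 and 0.05 on the log2 scale turned negative without ASO replicate 1 and without NC replicate 3, as given among the alternatives below. RPS25, which aids initiation at some viral internal entry sites, had 283, 272 and 295 CPM in ASO libraries and 339.9, 324 and 314 CPM in NC libraries. Its groups did not overlap, and it did not pass (log2 fold change of RPS25 -0.20, edgeR adjusted p = 0.057). It was called lower with upper-quartile factors, library size alone and the replicate block (edgeR adjusted p = 0.0399, 0.0320 and 0.0316, over the alternatives up to 0.182).

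RPS10, the other head protein ubiquitinated on collided ribosomes, had 755, 695 and 751 CPM in ASO libraries and 792, 789 and 1004 CPM in NC libraries (log2 fold change -0.23, edgeR adjusted p = 0.112). NC replicate 3 was high. The read-through gene RPS10-NUDT3 shares the exons of RPS10 and had 8661, 6165 and 8757 counts in ASO libraries and 12437, 9726 and 3008 counts in NC libraries, so the same NC replicate 3 was low there. The counts of both summed to 49178, 40873 and 46304 in ASO libraries and 54378, 52701 and 53716 in NC libraries. The sum averaged 887 ± 59.8 CPM in ASO and 1019 ± 48.3 CPM in NC (SD, n = 3 each), and NC replicate 3 no longer stood apart. Tested as 1 gene, an alternative chosen after the data were seen, the sum changed by -0.20 on the log2 scale (edgeR adjusted p = 0.0682, over the alternatives for RPS10 0.0477 to 0.223).

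**Figure D3:**
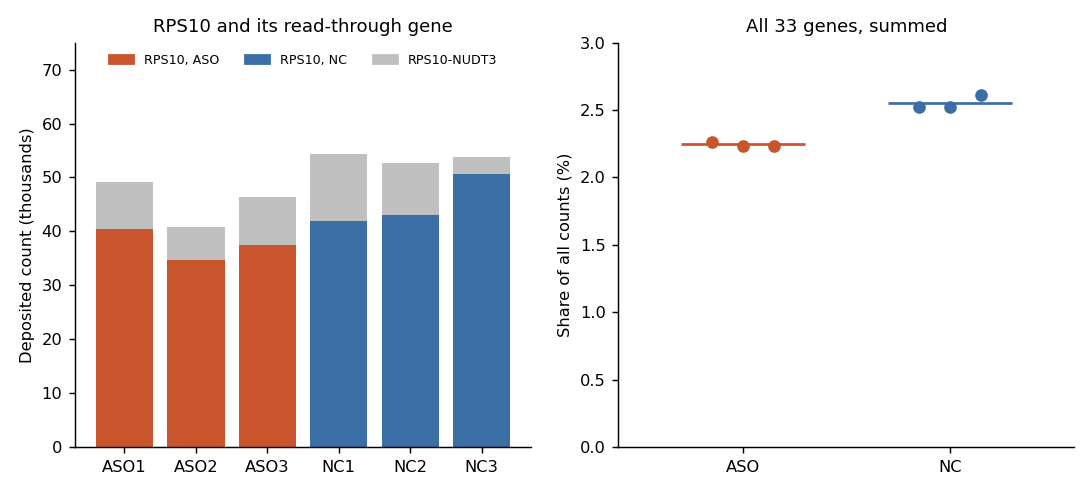
Left, stacked deposited counts (in units of 1000) of RPS10 (coloured) and RPS10-NUDT3 (grey) in each library, where NC3 has the tallest RPS10 part and the smallest grey part. Right, summed counts of all 33 genes as a share of each library's counts, with the mean as a line: the 3 ASO libraries lie at 2.23% to 2.27% and the 3 NC libraries at 2.52% to 2.61%.

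RPS24, a body protein with several spliced forms, was the most variable member. It had 271, 693 and 305 CPM in ASO libraries and 325, 443 and 345 CPM in NC libraries, with the library numbered 2 highest in each group. Its fitted change of 0.19 was not called (edgeR adjusted p = 0.672), and without ASO replicate 2 the log2 fold change of RPS24 was -0.37. The SD within groups was 0.55 on the log2 scale for RPS24, 0.34 for RPS3A and 0.24 for RPS29, against a median of 0.11 over the 33 genes. RPS27L, a p53-induced paralogue of RPS27, was the least expressed member, at 28.7, 39.6 and 33.7 CPM in ASO libraries and 35.8, 43.7 and 33.9 CPM in NC libraries, which overlapped (edgeR adjusted p = 0.457). The 24 genes that did not pass had log2 fold changes from -0.25 to 0.19, the highest being RPS24. RPS16 and RPS21 were above 0 (0.07 and 0.14), and RPS28, RPS9, RPS3, RPS15A, RPS23, RPS15, RPS27, RPS12 and RPS7 lay between -0.18 and -0.02.

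In all, 12 members had every ASO library below every NC library and 1 member the reverse, together 39.4% of the 33, against 57.6% of all genes tested (25.9% lower and 31.6% higher). Summed, the 33 genes took 2.27%, 2.24% and 2.23% of all counts in ASO libraries and 2.52%, 2.52% and 2.61% in NC libraries. The ASO libraries lay together below the NC libraries, at 2.25% ± 0.0173 against 2.55% ± 0.0501 (SD, n = 3 each), 0.880 of the NC share. By the age of the protein families, the 15 proteins shared with bacteria held 4 that fell and 1 that rose, and the 17 without a bacterial counterpart held 4 that fell and none that rose, with medians of -0.13 and -0.15. The falls were 26.7% and 23.5% of these, against 19.1% of all genes tested.

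Per kilobase of coding sequence, the members' levels ranged from 135 to 3622 CPM in ASO and from 150.0 to 4294 CPM in NC. RPS18 led with 3622 CPM per coding kilobase in ASO and 4294 in NC, and RPS14 stood at 2275 in ASO and 2774 in NC. RPS27L was lowest, then RPS3A with 392 in ASO and 603 in NC among the ASO levels, while RPS29 stood at 940.4 in ASO and at 555 in NC, where only RPS27L was lower. The order thus changed at its low end. Coding length leaves out the untranslated parts, so these levels rank genes only roughly.

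Shorter members tended to have the higher fold changes. Across the 33 genes the log2 fold change correlated with log2 coding length at Pearson r = -0.55 (Spearman rho = -0.52), and without RPS29, the shortest at 168 bases, at r = -0.38 (rho = -0.47). Over the 13412 tested genes with a coding sequence the same correlations were 0.01 and 0.04. With GC content they were 0.14 and 0.07 in the members, against 0.26 and 0.40 over all genes. These are correlations across genes that share the same 6 libraries, given as descriptions, and the part of length in the members' changes was not tested.

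**Figure D4:**
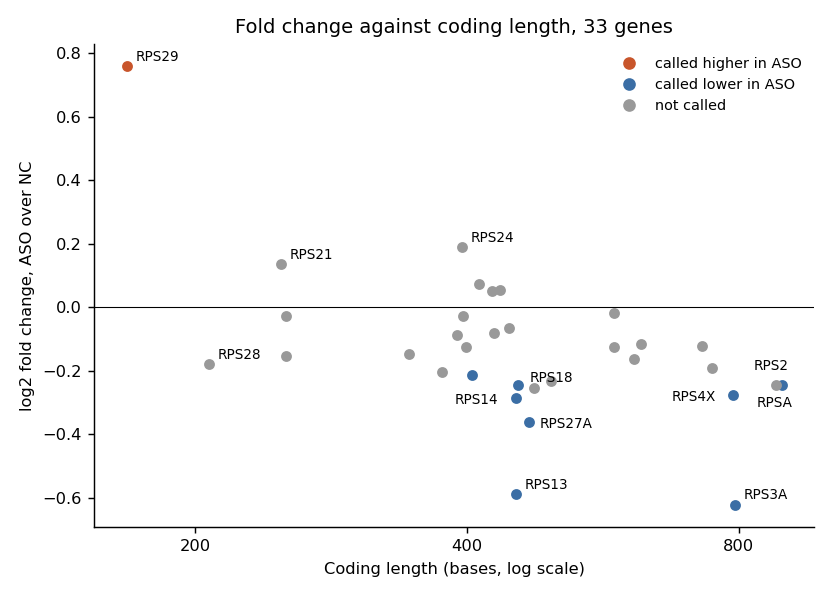
Log2 fold change of ASO over NC against coding length in bases (log axis) for the 33 genes, coloured by call. RPS29, at 168 bases and 0.76, lies alone at the upper left, and RPS3A, at 792 bases and -0.62, at the lower right.

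Small nucleolar RNA genes lie inside 9 of the members by the GENCODE 29 annotation, among them SNORD14A and SNORD14B in RPS13, SNORD73A and SNORD73B in RPS3A, and SNORA6 and SNORA62, of the same H/ACA class as SNORA67, in RPSA. Of these 9 hosts, 3 fell and none rose, with a median log2 fold change of -0.24. Of the 24 members without one, 5 fell and 1 rose, with a median of -0.14. The falls were 33.3% of the hosts and 20.8% of the others, against 19.1% of all genes tested. The difference between hosts and others was not tested. Many members have processed copies elsewhere in the genome, 74 for RPSA, 38 for RPS3A, 32 for RPS29, 17 for RPS27A and 1 for RPS13 by name, and the sources used here do not say how reads that match several genes were counted. The values of those with many copies are therefore uncertain. RPSAP58, a copy of RPSA with an entry of its own, stood at 246 ± 6.79 CPM in ASO and 317 ± 25.5 CPM in NC, 1.29-fold lower (edgeR adjusted p = 0.00917).

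The large subunit protein genes split into 16 lower and 5 higher of 52 tested, with a median log2 fold change of -0.14, and the mitochondrial small subunit protein genes into 7 lower and 0 higher of 29, with a median of -0.18. The lower calls were 30.8% and 24.1% of these, against 19.1% of all genes tested. Calls in either direction were 40.4% and 24.1%, against 46%, since 26.8% of all genes were called higher. The median of the 33 cytosolic small subunit genes was -0.15, and the difference from either group was not tested. RACK1, the scaffold protein bound to the small subunit head, was at 891 ± 56.2 CPM in ASO and 992 ± 50.4 CPM in NC (edgeR adjusted p = 0.14).

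**Figure D5:**
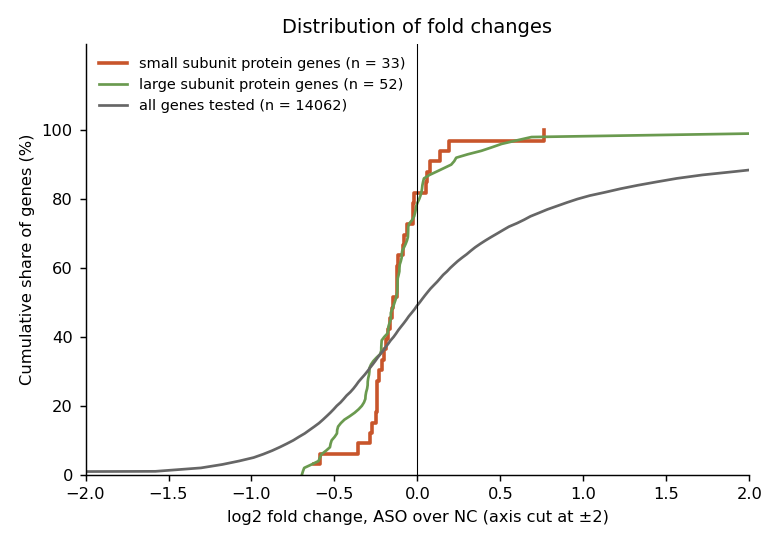
Cumulative share of genes (percent) by log2 fold change of ASO over NC for the 33 small subunit genes, the 52 large subunit genes and all 14062 genes tested, with the axis cut at 2 on either side. Both ribosomal curves rise steeply just below 0 (medians -0.15 and -0.14), while the curve of all genes is wide and centred at 0.01.

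Other messages known to carry a TOP tract, elongation and initiation factor genes among them, fell in 11 of 18 tested and rose in none (median log2 fold change -0.28). NPM1, a nucleolar chaperone, fell 1.68-fold to 962 ± 48.3 CPM in ASO, against 1618 ± 221 CPM in NC, EEF1B2, of the elongation factor that recharges eEF1A, 1.36-fold, PABPC1, the poly(A)-binding protein, 1.37-fold and EIF3H, of initiation factor 3, 1.27-fold (edgeR adjusted p = 0.00103, 0.0016, 0.00347 and 0.0119). The call of EIF3H ended without NC replicate 1 (log2 fold change of EIF3H, adjusted p = 0.0573). The count of 11 is 61.1% of those tested, against 19.1% of all genes called lower.

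Factors that assemble and export the small subunit split evenly, with 8 higher and 8 lower of 43 and a median of -0.03. Calls in either direction made up 37.2% of them, against 46% of all genes tested. The lower calls were 18.6%, against 19.1%, while 26.8% of all genes were called higher. CSNK1E and CSNK1D, kinases of late maturation, rose 2.35-fold and 1.603-fold, and UTP3 and RRP12, of the nucleolar precursor and its export, 1.49-fold and 1.46-fold (edgeR adjusted p = 8.2e-05, 0.000758, 0.00325 and 0.0043). Of the 8 that fell, XPO1, MPHOSPH10, WDR75 and HEATR1 changed most. Their log2 fold changes were -1.25, -0.86, -0.85 and -0.63 (edgeR adjusted p = 0.00456, 0.00783, 0.0101 and 0.00583), and they were named after their values were seen. NOB1, the nuclease that makes the end of the 18S RNA, was at 169.9 ± 19.8 CPM in ASO and 161 ± 4.26 CPM in NC (edgeR adjusted p = 0.555). Chaperones of small subunit proteins and nuclear import genes fell in 4 of 11 (36.4%, against 19.1% of all genes tested) and rose in none, with a median of -0.36. These were the importin genes IPO9 and IPO5, NAP1L1 and LTV1, by 1.29-fold, 1.68-fold, 1.42-fold and 1.49-fold (edgeR adjusted p = 0.00509, 0.0196, 0.0364 and 0.0402). LTV1 is also counted among the assembly factors above, and NAP1L1 among the other TOP messages. Leaving out 1 library ended the calls of IPO5 (without ASO replicate 3 or NC replicate 2), NAP1L1 (without ASO replicate 1 or 3 or any NC replicate) and LTV1 (without ASO replicate 1 or 3 or NC replicate 1 or 2), and that of IPO9 held. TSR2, the carrier of RPS26, was at 115 ± 4.24 CPM in ASO and 103 ± 4.01 CPM in NC (edgeR adjusted p = 0.165).

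Regulators around mTORC1 and the S6 kinases rose in 3 and fell in 4 of 24, with a median of -0.03. That is 29.2% called, against 46% of all genes tested, and 16.7% called lower, against 19.1%. The list was thus called less often than the genes at large. SESN2 and DDIT4, which restrain mTORC1 under stress, rose 5.67-fold and 1.79-fold (edgeR adjusted p = 3.16e-06 and 0.000127), with SESN2 at 312 ± 34.0 CPM in ASO and 55.0 ± 3.43 CPM in NC. DEPTOR, another inhibitor of mTORC1, fell by 1.49 on the log2 scale, and RPTOR, a core subunit of mTORC1, rose by 0.48 (edgeR adjusted p = 0.00479 and 0.0198); both were named after their values were seen. RPS6KA1, a kinase that also acts on RPS6, and TIA1, which binds TOP messages, fell 1.58-fold and 1.63-fold (edgeR adjusted p = 0.00142 and 0.00255). LARP1, the TOP-binding repressor, RPS6KB1, the main S6 kinase gene, and EIF4EBP1, the translational brake under mTORC1, had log2 fold changes of 0.10, -0.20 and -0.23 and did not pass (edgeR adjusted p = 0.341, 0.473 and 0.249).

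Genes that act on ubiquitinated or collided small subunits rose in 4 and fell in 5 of 23, with a median of -0.10. The share called was 39.1%, against 46% of all genes tested, and the share called lower 21.7%, near the 19.1% of all genes. OTUD1, a deubiquitinase, rose 6.72-fold to 45.7 ± 6.65 CPM in ASO, against 6.81 ± 0.0722 CPM in NC, and ZNF598, the ligase that marks RPS10 and RPS20 at collisions, rose 1.41-fold (edgeR adjusted p = 8.76e-06 and 0.0183). The call of ZNF598 ended without ASO replicate 1 or 3 (log2 fold change of ZNF598, adjusted p = 0.0592 and 0.0632). ASCC3, a helicase that clears collided ribosomes, G3BP1, a stress granule protein, and ABCE1, the recycling factor that splits the subunits, fell 1.70-fold, 1.35-fold and 2.06-fold (edgeR adjusted p = 0.00349, 0.00494 and 0.0114).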

How the data were processed

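Per the submitters' processing notes, hg38 was the build and DESeq2, StringTie, STAR and FastQC were among the tools, with neither version nor role stated. The authors deposited 1 table of estimated counts per gene, not scaled to depth. The values were already whole, so rounding changed nothing. The sources used here do not give the annotation release, strand setting or treatment of multiply matching reads, which matters for genes with many processed copies. From these counts, genes were kept by filterByExpr (minimum count 10, minimum total 15), scaled by TMM (factors 0.978 to 1.02) and tested with edgeR 4.0.16 (robust quasi-likelihood, no replicate block) in R 4.3.3, and the script was tested on simulated data. SE values are the log2 fold change divided by the square root of F. Column totals were 49136502 to 54905215 (n = 3 each). Sequences came from RefSeq GRCh38.p14, coding lengths from GENCODE 29.

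Alternatives were other scalings, filters, DESeq2 1.42.0, limma-voom (limma 3.58.1), gene sets for scaling, counts divided by 4, a replicate block and leaving out libraries. Members, lists and the rule for named genes (all members, up to 4 called genes of smallest p per list, and fixed extras) were chosen with earlier results of these data known. RPSAP58, RPS10-NUDT3, CLHC1, DEPTOR, RPTOR, XPO1, MPHOSPH10, WDR75 and HEATR1 were named after their values were seen. GAS5 was not analysed here, and some members enter the counts and medians but are not reported here by name.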

Additional observations from a re-analysis of the deposited data

How the results depend on the processing

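Over 19 settings and 33 genes, 576 of 627 member fits kept direction and side of the threshold, 30 called results were lost, 11 were gained and 10 small or variable changes turned sign. The median log2 fold change of the members ran from -0.17 to -0.12, and RPS29 was the single higher call in each setting. Leaving out 1 library gave 3 to 7 lower calls and medians of -0.17 to -0.12, with 34.3% to 49.8% of all genes called. Leaving out 1 library turned the sign in 8 genes, the range of the log2 fold change of RPS7 being -0.0668 to 0.0140, the log2 fold change of RPS15 -0.128 to 0.00823, the log2 fold change of RPS19 -0.0292 to 0.106, the log2 fold change of RPS20 -0.0165 to 0.0850, the log2 fold change of RPS24 -0.369 to 0.424, the log2 fold change of RPS27 -0.0637 to 0.0121, the log2 fold change of RPS6KB1 -0.402 to 0.00831 and the log2 fold change of NOB1 -0.00842 to 0.159. It also turned for RPS7 with counts divided by 4 (0.00334) and, without both libraries numbered 2, a setting chosen after the data were seen, for RPS7 (0.0296), RPS24 (-0.213) and RPS27 (0.0113). The cause was not tested. With the replicate number as a block, 12 members were lower and 1 higher, 8 of these 13 shared with the 9 calls without the block, and 52.8% of all genes were called. Whether the numbers pair the samples cannot be told from correlations, because deviations inside a group of 3 depend on each other. Deviations of same-numbered libraries correlated at 0.11, 0.36 and 0.07 over 14062 genes. Those of differently numbered libraries correlated at -0.28 to 0.20, and ASO replicate 1 correlated best with NC replicate 3 (0.20). Of 570 fits of named genes that are not members, 551 kept direction and side of the threshold, 14 lost a call, 3 gained one and 2 turned sign. These fits leave out the cell type markers, RPS10-NUDT3, CLHC1, DEPTOR, RPTOR, XPO1, MPHOSPH10, WDR75 and HEATR1. With counts divided by 4, which lowers the depth the model assumes, 7 of the 9 member calls were made.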
